A study of Mus musculus with 6 samples.

Results

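Acute-phase and secreted defence proteins were followed at the transcript level through 9 genes, *Hp*, *Lcn2*, *Saa3*, *Cp*, *S100a8*, *S100a9*, *Slpi*, *Chil3* and *Lyz2*, which were chosen by name from the 19309 genes of the table. Each name was carried by a single gene identifier, and 8 of the 9 genes averaged above 5 counts per library and could be tested, with 13785 genes tested in all. Macrophages grown from bone marrow gave the libraries, 3 from sEH-/- and 3 from wild-type mice, each from a different mouse. Both genotypes had been kept for 7 days with the growth factors GM-CSF and M-CSF, stimulated with LPS and IFN-γ for 24 h to give M1 macrophages and then repolarized with TGF-β1 for 48 h to the M2c state, as stated in the labels, while the methods of the study state a shorter M1 step and a shorter or the same TGF-β1 step. The soluble epoxide hydrolase (sEH), encoded by *Ephx2*, converts fatty acid epoxides to diols. Its deletion was constitutive and present in the whole animal, so that the bone marrow precursors lacked the enzyme as well as the macrophages, and the labels give neither age nor sex of the mice. The methods describe bone marrow from young adult littermates of the same strain, mostly females.

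The acute-phase response is a rapid change in plasma proteins that follows infection or injury, and its classical source is the liver. Interleukin-1 and interleukin-6 drive it through NF-κB, C/EBP factors and STAT3. Macrophages transcribe a part of the same programme themselves, and haptoglobin, lipocalin-2, serum amyloid A3 and ceruloplasmin are the members that belong to it. Haptoglobin captures free haemoglobin, lipocalin-2 withholds iron from bacteria by binding their siderophores, and ceruloplasmin oxidizes iron so that it can be loaded onto transferrin. S100A8 and S100A9 form calprotectin, a metal-binding complex that is abundant in neutrophils and monocytes. Slpi protects tissue from leukocyte proteases, Chil3 (Ym1) is a chitinase-like protein without chitinase activity, and lysozyme 2 cleaves the bacterial cell wall.

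The 6 libraries held between 4400197 and 6096440 counts. The check of the genotype passed, since *Ephx2* had 4, 2 and 1 counts (sEH-/-) against 26, 49 and 57 counts (wild-type). The counts are given below for replicates 1, 2 and 3 of each genotype, in this order. CPM are counts scaled to a common library size after TMM normalization, and a positive log2 fold change, given with its standard error (SE), means a higher level in sEH-/- cells. A gene was called when edgeR's quasi-likelihood test gave a Benjamini-Hochberg adjusted p below 0.05 and the level differed by more than 1.5-fold in either direction. Macrophage markers were abundant in all libraries, with a summed level of 2040 to 2490 CPM (sEH-/-) against 1782 to 2240 CPM (wild-type). None of the 8 was called, but all 8 had a log2 fold change above 0, against 49.8% of all tested genes. *Cd14* (0.50, adjusted p = 0.029 from edgeR) missed only the fold threshold. *Cd14* and *Fcgr1* (0.45, adjusted p = 0.065 from edgeR) were higher in each sEH-/- than in each wild-type library, as were 11.8% of all tested genes.

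*Hp* and *Lcn2* rose in sEH-/- macrophages, and none of the members fell. Among the 8 tested members, 2 were called higher and 0 lower, where 1.51% of all tested genes were called higher and 1.1% lower. The libraries of the genotypes did not overlap, with the sEH-/- libraries higher, for *Hp*, *Lcn2*, *Cp* and *S100a8*, that is 4 of the 8 members against 11.8% of all tested genes. *Saa3*, *Slpi*, *Chil3* and *Lyz2* overlapped between the genotypes. The log2 fold change was above 0 in all 8 members with all libraries in the fit, against 49.8% of all tested genes, but that of *Chil3* changed sign when sEH-/- replicate 3 was left out or the library total was entered as a covariate. The median log2 fold change was 0.36 over the 8 members and -0.00092 over all tested genes. The members were chosen with earlier results of these data known, so that these comparisons with all genes are descriptions.

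**Figure D1:**
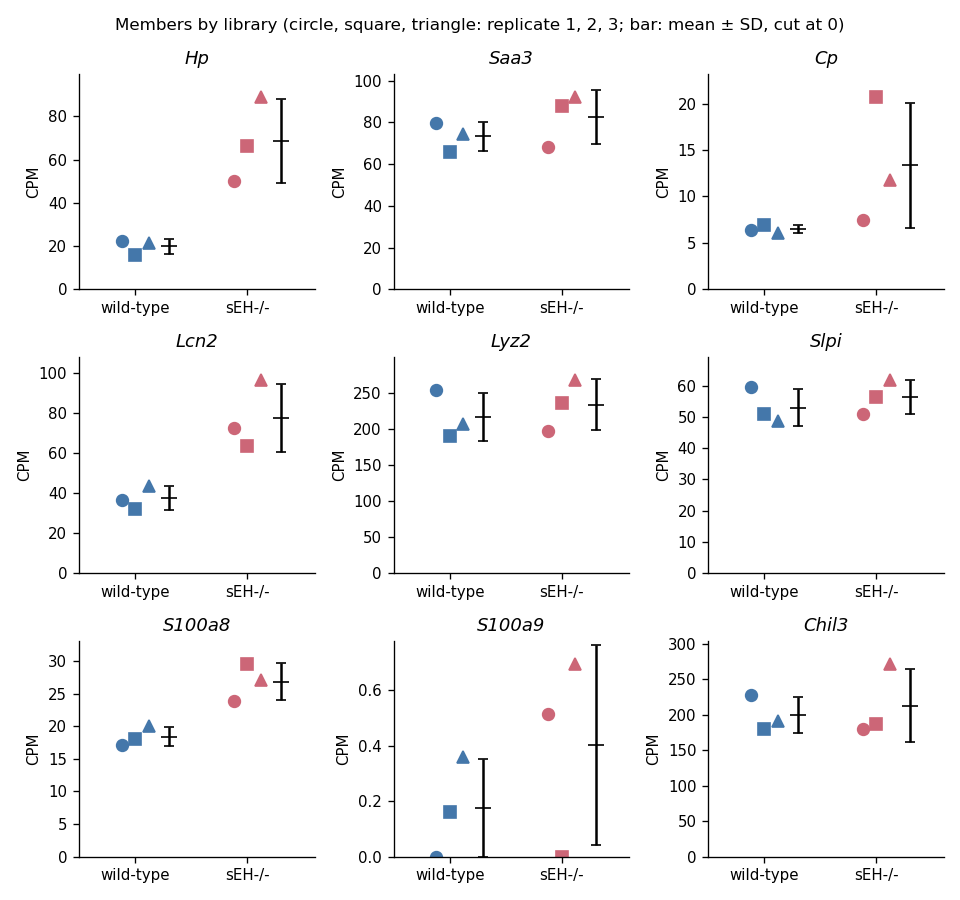
CPM of each member in every library, with wild-type in blue and sEH-/- in red. Bars give the mean ± SD (n = 3 mice) and are cut at 0. The groups are apart for *Hp*, *Lcn2*, *Cp* and *S100a8* and overlap for *Saa3*, *Lyz2*, *Slpi*, *S100a9* and *Chil3*.

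*Hp* (ENSMUSG00000031722) lies on the minus strand of chromosome 8 of GRCm38 (mm10), from 109575128 to 109579172. There were 294, 329 and 385 counts (sEH-/-) against 102, 97 and 120 counts (wild-type). This corresponded to 50.2, 66.3 and 89.1 CPM (sEH-/-) against 22.4, 15.7 and 21.5 CPM (wild-type). The lowest sEH-/- library was above the highest wild-type library by more than the whole range of the wild-type group. The sEH-/- libraries were themselves spread widely, and the highest CPM was found in the library with the lowest total. Mean levels were 68.5 ± 19.6 against 19.9 ± 3.62 CPM (SD, n = 3 mice per genotype). On the log2 scale *Hp* was higher by 1.79 (SE 0.21, edgeR, adjusted p = 0.0058). This difference was 1.61 with the library total as a covariate, and leaving out single libraries gave 1.57 to 1.98. *Hp* was called in 15 of 16 alternative analyses, and the call was lost without wild-type replicate 3 (adjusted p = 0.072 from edgeR). CD163, the macrophage receptor that takes up haptoglobin-haemoglobin complexes, was at the limit of detection, with 0, 2 and 1 *Cd163* counts in the sEH-/- libraries and 0 in every wild-type library.

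*Lcn2* (ENSMUSG00000026822) is on the minus strand of chromosome 2, from 32384633 to 32388252. Its transcripts were counted 425, 315 and 417 times (sEH-/-) against 167, 197 and 244 times (wild-type). The corresponding levels were 72.6, 63.4 and 96.5 CPM (sEH-/-) against 36.7, 31.9 and 43.7 CPM (wild-type). As for *Hp*, sEH-/- replicate 3 was the highest and the wild-type libraries lay close together below all sEH-/- libraries. Mean levels were 77.5 ± 17.1 against 37.4 ± 5.91 CPM (SD, n = 3 mice per genotype). On the log2 scale *Lcn2* was higher by 1.05 (SE 0.16, edgeR, adjusted p = 0.015), and leaving out single libraries gave 0.88 to 1.19. The call was lost without wild-type replicate 2 (adjusted p = 0.074) and without wild-type replicate 3 (adjusted p = 0.084), both from edgeR, and held in the other 14 of 16 alternatives.

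Monocyte markers were higher in sEH-/- macrophages, as *Hp* and *Lcn2* were. Of the 6 monocyte markers, all of which were in the table, 5 were tested. *Ly6c2*, *Plac8* and *F13a1* were called higher, as were 1.51% of all tested genes. *F13a1* had 20, 95 and 14 counts (sEH-/-) against 5, 4 and 5 counts (wild-type), so that sEH-/- replicate 2 was far above all others. The summed level of the 6 markers was 69.4 to 87.0 CPM in the sEH-/- libraries and 25.1 to 30.8 CPM in the wild-type libraries, without overlap. Among the sEH-/- libraries this sum was lowest in replicate 3, where *Hp* and *Lcn2* were highest, while *Ly6c2* and *Ccr2* by themselves were highest there. Whether fewer or more cells of a type or a different amount of RNA per cell gave a level cannot be told apart in bulk libraries, and the part of monocyte-like cells in the *Hp* and *Lcn2* results was not tested.

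Ceruloplasmin varied widely between the sEH-/- libraries. *Cp* (ENSMUSG00000003617), on the plus strand of chromosome 3 from 19957054 to 20009145, had 44, 103 and 51 counts (sEH-/-) against 29, 43 and 34 counts (wild-type). This gave 7.51, 20.7 and 11.8 CPM (sEH-/-) against 6.37, 6.96 and 6.08 CPM (wild-type). The groups did not overlap, but sEH-/- replicate 1 was close to the wild-type libraries and replicate 2 was far above all others. Mean levels were 13.4 ± 6.75 against 6.47 ± 0.449 CPM (SD, n = 3 mice per genotype). The log2 difference was 1.03 (SE 0.34), and edgeR did not call *Cp* (adjusted p = 0.10). This difference was 1.33 and called without sEH-/- replicate 1 (adjusted p = 0.028) and 0.57 without sEH-/- replicate 2 (adjusted p = 0.37), both from edgeR. *Cp* overlaps *Hps3*, which is on the opposite strand, and the counting was stated to use the strand.

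*Saa3*, an apolipoprotein-like acute-phase protein that in mice is made in macrophages and other cells outside the liver, did not pass the test. *Saa3* (ENSMUSG00000040026) is on the minus strand of chromosome 7, from 46711998 to 46715700. There were 399, 436 and 399 counts (sEH-/-) against 363, 406 and 416 counts (wild-type). Levels of 68.1, 87.8 and 92.4 CPM in sEH-/- overlapped with 79.7, 65.7 and 74.4 CPM in wild-type cells. For *Saa3* edgeR gave a log2 difference of 0.17 (SE 0.12) with an adjusted p of 0.42. The related *Saa1* had at most 1 count in any library. Reads that mapped to several places had been removed, so that the counts of *Saa3*, *Chil3* and *Lyz2*, which have close relatives, are uncertain.

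The subunits of calprotectin were found at very different levels. *S100a8* (ENSMUSG00000056054) is on the plus strand of chromosome 3, from 90668978 to 90670035, and *S100a9* (ENSMUSG00000056071) on the minus strand from 90692632 to 90695721, with 22596 bases between them. *S100a8* had 140, 147 and 117 counts (sEH-/-) against 78, 112 and 112 counts (wild-type). *S100a9* had 3, 0 and 3 counts (sEH-/-) against 0, 1 and 2 counts (wild-type). Over the 6 libraries *S100a8* had 706 and *S100a9* 9 counts, a ratio of 78.4, and per kilobase of the principal transcript the wild-type levels were 37.9 ± 3.05 and 0.33 ± 0.35 CPM (SD, n = 3). *S100a9* was too low to be tested, and a difference between the genotypes was not detectable at this depth.

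*S100a8* was higher in each sEH-/- library than in each wild-type library, with 23.9, 29.6 and 27.1 CPM against 17.1, 18.1 and 20 CPM. Mean levels were 26.9 ± 2.86 against 18.4 ± 1.48 CPM (SD, n = 3 mice per genotype). The log2 difference of 0.54 (SE 0.14) was below the fold threshold, edgeR gave an adjusted p of 0.057, and *S100a8* was not called. It was called in 2 of 16 alternatives, without sEH-/- replicate 1 (log2 fold change 0.62, adjusted p = 0.036 from edgeR) and after a correction of the counts for 1 count per base of the principal transcript, which was chosen after seeing the data and is described with *Lyz2* (0.62, adjusted p = 0.039 from edgeR). The same correction with all exonic bases gave 0.58 (adjusted p = 0.045 from edgeR), just below the fold threshold, and no call. The adjusted p ranged from 0.036 to 0.24 over the alternatives. Neutrophil markers were looked at beside *S100a8*, since neutrophils hold much calprotectin. Of the 14 listed, 9 were in the table and 6 of these, *Ngp*, *Camp*, *Ltf*, *Elane*, *Cxcr2* and *Cd177*, were at or near 0, with at most 15 counts in a library. These 6 summed to 13 to 38 counts (sEH-/-) against 2 to 10 counts (wild-type), without overlap, and their part in the *S100a8* result was not tested. The whole list summed to 306 to 388 CPM (sEH-/-) against 281 to 338 CPM (wild-type), most of it from *Mmp8*. The 3 tested markers were not called and went in different directions. Their log2 fold changes were -0.98 for *Prtn3*, 0.15 for *Mmp8* and 0.84 for *Csf3r* (adjusted p = 0.14, 0.44 and 0.069 from edgeR). Of these only *Csf3r* did not overlap between the genotypes, with sEH-/- higher.

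The sequences before the transcription starts of *Lcn2*, of *Saa3* and of the neighbours *S100a8* and *S100a9* are shown because *Lcn2* rose while *Saa3* did not pass the test, and because the calprotectin subunits differed so widely in level. They are from RefSeq promoters on GRCm38.p6, begin 250 bases before the RefSeq start and run 5′ to 3′ on the strand of the gene. They end before both the RefSeq start and the start of the principal Ensembl transcript. The *Lcn2* stretch nevertheless lies within the span of the Ensembl gene given above, which begins further upstream. Capitals mark matches to the C/EBP pattern TTNNGNAA on either strand.

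*Lcn2*, chr2:32387798-32387989, minus strand: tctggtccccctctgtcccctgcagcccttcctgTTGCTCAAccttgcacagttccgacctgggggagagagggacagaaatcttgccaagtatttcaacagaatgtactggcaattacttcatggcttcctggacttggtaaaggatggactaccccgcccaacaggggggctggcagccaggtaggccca

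*Saa3*, chr7:46715701-46715926, minus strand: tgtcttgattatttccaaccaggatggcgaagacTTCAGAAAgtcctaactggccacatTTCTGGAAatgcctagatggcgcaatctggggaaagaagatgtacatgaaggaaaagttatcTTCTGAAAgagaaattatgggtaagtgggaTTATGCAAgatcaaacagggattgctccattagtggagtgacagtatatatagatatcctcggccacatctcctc

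*S100a8*, chr3:90668821-90668977, plus strand: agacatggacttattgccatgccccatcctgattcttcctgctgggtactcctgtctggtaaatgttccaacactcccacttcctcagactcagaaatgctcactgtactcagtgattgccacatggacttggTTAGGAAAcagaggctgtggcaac

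*S100a9*, chr3:90695722-90695971, minus strand: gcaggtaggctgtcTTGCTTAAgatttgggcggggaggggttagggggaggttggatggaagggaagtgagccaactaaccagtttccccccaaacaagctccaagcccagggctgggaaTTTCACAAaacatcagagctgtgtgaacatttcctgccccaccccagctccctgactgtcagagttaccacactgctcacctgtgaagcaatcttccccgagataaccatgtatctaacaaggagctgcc

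A promoter window of 300 bases, 250 before and 50 after the start, was available for 8 of the 9 members, all except *Hp*. The C/EBP pattern TTNNGNAA was found in 8 of 8, and in 40.7% of 32851 promoters of the same length. The STAT pattern TTCNNNGAA was found in *Chil3* only among the members (8.3% of all promoters) and the AP-1 pattern TGANTCA in *Cp* only (7.81%). No member had a match to the NF-κB pattern (4.51%). Both strands were searched, and the STAT and AP-1 matches did not overlap a C/EBP match. *Saa3* had the most C/EBP matches, beginning at positions -216, -191, -129 and -99 relative to the RefSeq start, while *Lcn2* had one at -216 and *S100a8* one at -117. Thus a member that was called and members that were not shared the pattern. A match describes letters and does not show that a factor was bound.

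*Slpi* (ENSMUSG00000017002, minus strand of chromosome 2, 164354070 to 164389095) had 298, 281 and 267 counts (sEH-/-) against 272, 314 and 272 counts (wild-type). Its CPM overlapped between the genotypes, with 56.4 ± 5.46 (sEH-/-) against 53.1 ± 5.85 (wild-type, SD, n = 3 each). For *Slpi* edgeR gave a log2 difference of 0.089 (SE 0.11) with an adjusted p of 0.67. *Chil3* (ENSMUSG00000040809, minus strand of chromosome 3, 106147554 to 106167564) had 1056, 925 and 1173 counts (sEH-/-) against 1038, 1112 and 1069 counts (wild-type). Its log2 difference was also 0.089 ± 0.15 SE (edgeR adjusted p = 0.77), and its neighbour *Chil4* (log2 fold change 0.34, adjusted p = 0.69 from edgeR) and the related *Chil1* on chromosome 1 (0.62, adjusted p = 0.66 from edgeR) were not called either.

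*Lyz2* (ENSMUSG00000069516, minus strand of chromosome 10, 117277331 to 117282321) had the most even counts of the members. There were 1153, 1170 and 1154 counts (sEH-/-) against 1155, 1173 and 1154 counts (wild-type). The highest count was 1.02 times the lowest, the smallest such ratio among 10277 genes that averaged 50 counts or more, although the highest library total was 1.39 times the lowest. Dividing by the library sizes turned these even counts into 233 ± 35.2 against 217 ± 33.0 CPM (SD, n = 3 mice per genotype). For *Lyz2* edgeR gave a log2 difference of 0.11 (SE 0.13) with an adjusted p of 0.67. The related *Lyz1* had fewer counts, with a ratio of *Lyz2* to *Lyz1* of 11.6, and a log2 fold change of 0.20 (adjusted p = 0.65 from edgeR).

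The deposited counts are what remained after duplicate removal, and *Lyz2* carried 0.881 counts per base of its principal transcript. *Saa3* had 0.726, *Chil3* 0.69, *Slpi* 0.324, *Lcn2* 0.321, *S100a8* 0.242, *Hp* 0.164 and *Cp* 0.0126 counts per base. Over 10001 genes that averaged 50 counts or more and had a known principal transcript, counts followed the library total less the more counts per base a gene had. The median slope of log2 count on log2 total was 1.47 over the 1574 of these genes with less than 0.05 counts per base and 0.26 over the 76 genes with 0.7 to 1 counts per base. The ratio of the highest to the lowest count was 1.2 for *Saa3*, 1.27 for *Chil3* and 1.18 for *Slpi*, but 3.97 for *Hp*, 3.55 for *Cp*, 2.54 for *Lcn2* and 1.88 for *S100a8*. A difference between the genotypes in *Lyz2*, *Saa3* or *Chil3* could therefore be smaller in the counts than in the RNA. When the counts were corrected for a limit of 1 count per exonic base, the log2 fold change of *Lcn2* was 1.11 and that of *Hp* 1.92. With the shorter principal transcripts in place of all exonic bases, a choice made after seeing the data, they were 1.28 and 1.96. For *Lyz2* both lengths are 1316 bases, so that the 2 corrections are the same. Its corrected counts were 2749, 2894 and 2757 in the sEH-/- and 2765, 2921 and 2757 in the wild-type libraries, and the difference was still not called. These corrected counts still hardly followed the library total, so that this result cannot tell whether the RNA differed.

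**Figure D2:**
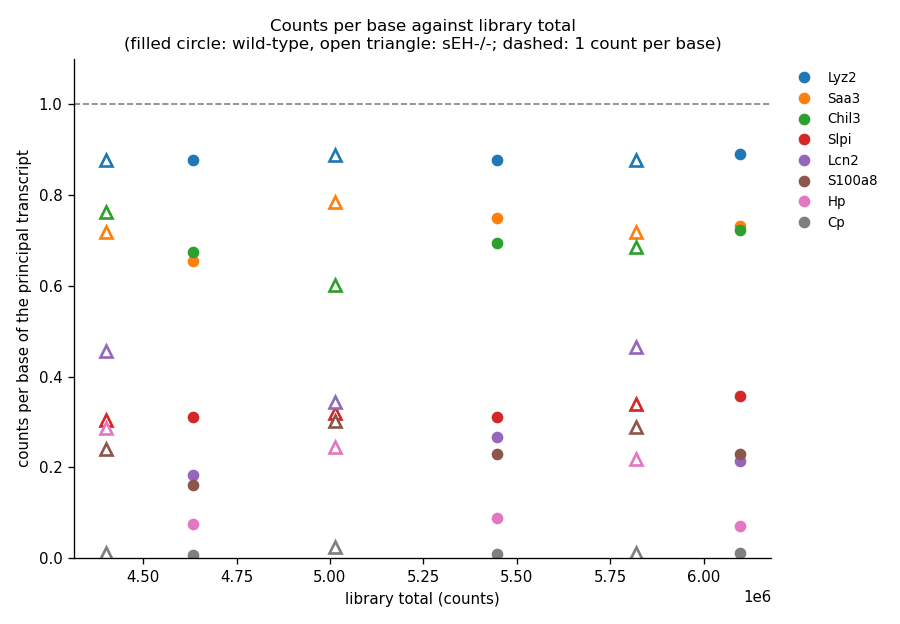
Counts per base of the principal transcript (vertical axis) against the library total in counts (horizontal axis) for 8 members in each library, with filled circles for wild-type and open triangles for sEH-/- libraries. *Lyz2*, with 0.881 counts per base on average, is flat just below the dashed line at 1 count per base, while *Hp*, *Lcn2* and *S100a8* separate the genotypes further down.

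**Figure D3:**
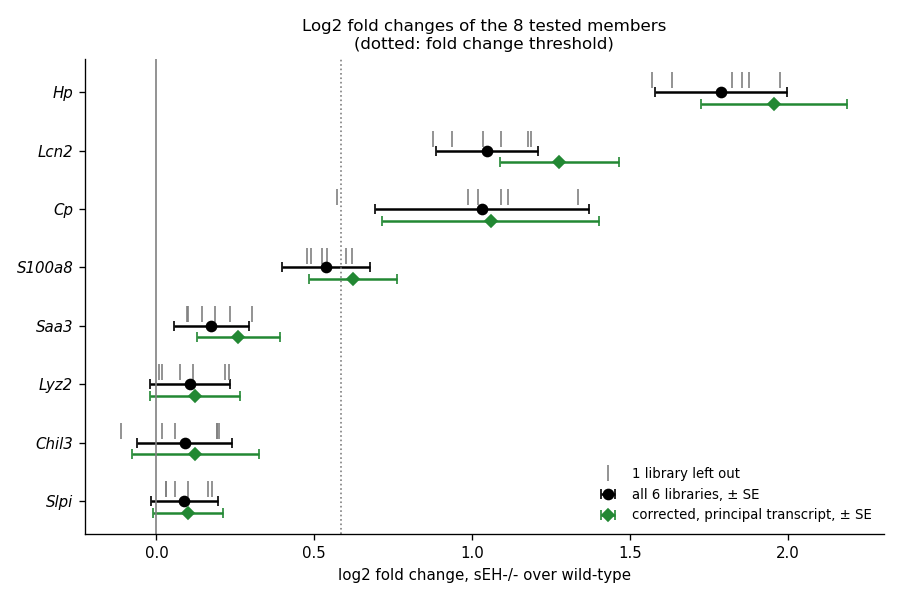
Log2 fold changes (sEH-/- over wild-type, horizontal axis) of the 8 tested members with all libraries (black, ± SE), after correction for 1 count per base of the principal transcript (green, ± SE) and with each library left out (grey ticks). *Hp* and *Lcn2* stay to the right of the dotted line of the fold threshold, *Cp* reaches both sides of it, and the ticks of *Chil3* lie on both sides of 0.

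The order of the members by level changed between the genotypes in the middle of the list. Per kilobase of the principal transcript, wild-type levels fell in the order *Lyz2* (165 ± 25.1 CPM per kilobase, SD, n = 3), *Saa3* (132 ± 12.7), *Chil3* (130 ± 16.2), *Slpi* (60.6 ± 6.68), *Lcn2* (40.9 ± 6.46), *S100a8* (37.9 ± 3.05), *Hp* (14.8 ± 2.69), *Cp* (1.61 ± 0.11) and *S100a9*. The neighbours *Saa3* and *Chil3*, and *Lcn2* and *S100a8*, overlapped between libraries, and the other neighbours did not. In sEH-/- macrophages *Lcn2* was at 84.7 ± 18.7 CPM per kilobase and came before *Slpi* with 64.4 ± 6.24, *S100a8* with 55.3 ± 5.88 and *Hp* with 51.0 ± 14.5 (SD, n = 3). The range of *Lcn2* over the sEH-/- libraries overlapped with that of *Slpi*, that of *Slpi* with *S100a8* and that of *S100a8* with *Hp*. The range of *Lcn2* lay above those of both *S100a8* and *Hp*. Compared within each sEH-/- library, *Lcn2* was above *Slpi* and *Slpi* above *S100a8*, while *S100a8* and *Hp* changed order in replicate 3. Levels near 1 count per base are lower limits in this order.

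Across the 6 libraries, the log2 CPM of *Hp* and *Lcn2* had a Pearson correlation of 0.961, *Hp* and *S100a8* of 0.925, and *Lcn2* and *S100a8* of 0.864. *Lyz2* was most like *Slpi* (0.941), *Saa3* (0.915) and *Chil3* (0.867). These values describe 6 points that share genotype and library depth, and the second set holds members whose counts hardly followed the library total. Among 10276 other genes, those most like *Hp* were *Polr3k* (0.996), *C1s1* (0.994) and the monocyte marker *Ly6c2* (0.994), of which *C1s1* and *Ly6c2* were called higher in sEH-/- cells. Those most like *Lcn2* were *Zfp324* (0.985), *Septin6* and *Bco2*, and those most like *S100a8* were *Sipa1* (0.990), *Psme2b* and *Aagab*. *Cp* was most like *Ptrh2* (0.994), *Mrps11* and *Tnip3*, and *Saa3* most like *Tuba1b* (0.997), *AU020206* and *Ndufa8*. *Lyz2* was most like *Psap* (0.999), *Ctsd* and *Ctss*, *Slpi* like *Myof* (0.997), *Ociad1* and *Chd4*, and *Chil3* like *Actn4* (0.982), *Ddx3x* and *Mmp19*. As the counts of *Lyz2* were nearly even, its log2 CPM mainly reflects the library sizes. Whether its likeness to these genes goes beyond library size was not tested.

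Genes around the members were taken from 6 lists. Of the 128 genes listed, 109 were in the table and 84 tested, and 9 were called higher and 0 lower, that is 10.7% of those tested, next to 2.61% of all tested genes called in either direction. The lists were chosen with earlier results of these data known, so that these counts are descriptions. Of 12 tested acute-phase proteins outside the members, 8 had a log2 fold change above 0 (49.8% of all tested genes) and 1 was called. This was *Lbp*, the LPS-binding protein, with 54, 75 and 33 counts (sEH-/-) against 26, 22 and 13 counts (wild-type) (log2 difference 1.49 ± 0.36 SE, edgeR adjusted p = 0.048). Of the 11 tested genes of this list that were not called, 3 did not overlap with sEH-/- higher and 1 with sEH-/- lower. Over all tested genes, called or not, 11.8% did not overlap with sEH-/- higher and 26.3% in either direction. The 3 higher genes, the complement genes *C3* (0.58, adjusted p = 0.055) and *Cfb* (1.07, adjusted p = 0.052) and the orosomucoid *Orm2* (0.91, adjusted p = 0.077), did not pass edgeR's test. The metallothionein *Mt1* did not overlap in the opposite direction (-0.21, adjusted p = 0.20 from edgeR). These 4 genes, and *Orm1*, another orosomucoid with a log2 fold change of -0.040, were named after their values were seen.

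Of 14 tested secreted antimicrobial and granule proteins, 12 were above 0 (49.8% of all tested genes) and 2 were called (2.61% of all tested genes). These were *Ang*, an angiogenic ribonuclease, with 91, 94 and 71 against 45, 46 and 46 counts (log2 difference 1.0 ± 0.19 SE, edgeR adjusted p = 0.026), and *Cfp*, the complement factor properdin, with 729, 800 and 517 against 407, 501 and 470 counts (0.67 ± 0.11 SE, edgeR adjusted p = 0.018). *Rnase4* (0.46, adjusted p = 0.030 from edgeR) missed only the fold threshold. *Rnase4* and *Wfdc21* (2.04, adjusted p = 0.055 from edgeR, at most 14 counts) did not overlap, with sEH-/- higher. None of the 6 tested genes of the S100 family was called, and their median log2 fold change was 0.085. *S100a4* did not overlap, with sEH-/- higher (0.63, adjusted p = 0.29 from edgeR). Over all tested genes 11.8% did not overlap with sEH-/- higher. *Rnase4*, *Wfdc21* and *S100a4* were named after their values were seen.

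Among receptors and binding partners of the members, 14 of 18 tested genes were above 0 (49.8% of all tested genes) and 4 were called higher (1.51% of all tested genes). These included the formyl peptide receptors *Fpr1* (log2 fold change 1.35, adjusted p = 0.0087 from edgeR) and *Fpr2* (0.76, adjusted p = 0.031 from edgeR), the latter of which also binds serum amyloid A. *Tlr2* was the third and *Mmp9* the last, and *Mmp9*, which lipocalin-2 binds and protects from degradation, was named after its values were seen. There were 603, 247 and 177 counts (sEH-/-) against 68, 102 and 98 counts (wild-type) (log2 fold change 2.0, adjusted p = 0.016 from edgeR). *Slc22a17*, a lipocalin-2 receptor, had a log2 fold change of -0.021, and *Ager*, a receptor for S100 proteins, of -0.15, and neither was called. Of the 14 tested genes of this list that were not called, 4 did not overlap with sEH-/- higher and 0 with sEH-/- lower. Over all tested genes 11.8% did not overlap with sEH-/- higher. The 4 were *Tlr4* (log2 fold change 0.36, adjusted p = 0.079 from edgeR), *P2rx7* (0.46, 0.060), *Plscr1* (0.49, 0.033) and *Plscr4* (0.69, 0.073). They were named after their values were seen.

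Of 20 tested inducers and transcription factors of acute-phase genes, 15 were above 0 (49.8% of all tested genes) and 2 were called (2.61% of all tested genes). These were *Il1b* and *Nfkbiz*, which encodes the IκBζ protein needed for a set of secondary NF-κB targets that includes *Lcn2*. *Nfkbiz* had 288, 239 and 130 counts (sEH-/-) against 69, 118 and 102 counts (wild-type) (log2 difference 1.28 ± 0.19 SE, edgeR adjusted p = 0.014). None of the listed factors that act on the C/EBP and STAT patterns was called. Their log2 differences were -0.094 for *Cebpa*, 0.084 for *Cebpb*, 0.40 for *Cebpd*, 0.93 for *Cebpe* and 0.059 for *Stat3*, and of these *Cebpe* alone did not overlap between the genotypes in CPM, with 136, 51 and 42 counts (sEH-/-) against 34, 48 and 43 counts (wild-type). *Il6* was low, with 38, 6 and 4 counts (sEH-/-) against 1, 4 and 1 counts (wild-type), and was not called (log2 fold change 2.97, adjusted p = 0.077 from edgeR). Of the 18 tested genes of this list that were not called, 6 did not overlap with sEH-/- higher and 2 with sEH-/- lower. Over all tested genes, called or not, 11.8% did not overlap with sEH-/- higher and 26.3% in either direction. The 2 lower genes were *Lif* (-1.16, adjusted p = 0.088 from edgeR) and *Il6st* (-0.40, adjusted p = 0.064 from edgeR). They encode another cytokine of the family and the shared receptor subunit. The genes of this list other than *Il1b* and *Nfkbiz*, and *Slc22a17*, *Ager* and *Slc40a1*, were named after their values were seen. None of the 18 tested genes of iron and haem handling was called, with 9 above and 9 below 0 and a median of -0.0066. These include *Slc40a1*, the iron exporter that works with ceruloplasmin (log2 fold change -0.30, adjusted p = 0.36 from edgeR). *Hfe* did not overlap with sEH-/- higher (0.58, adjusted p = 0.052 from edgeR) and *Slc11a2* with sEH-/- lower (-0.18, adjusted p = 0.13 from edgeR). Both were named after their values were seen.

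**Figure D4:**
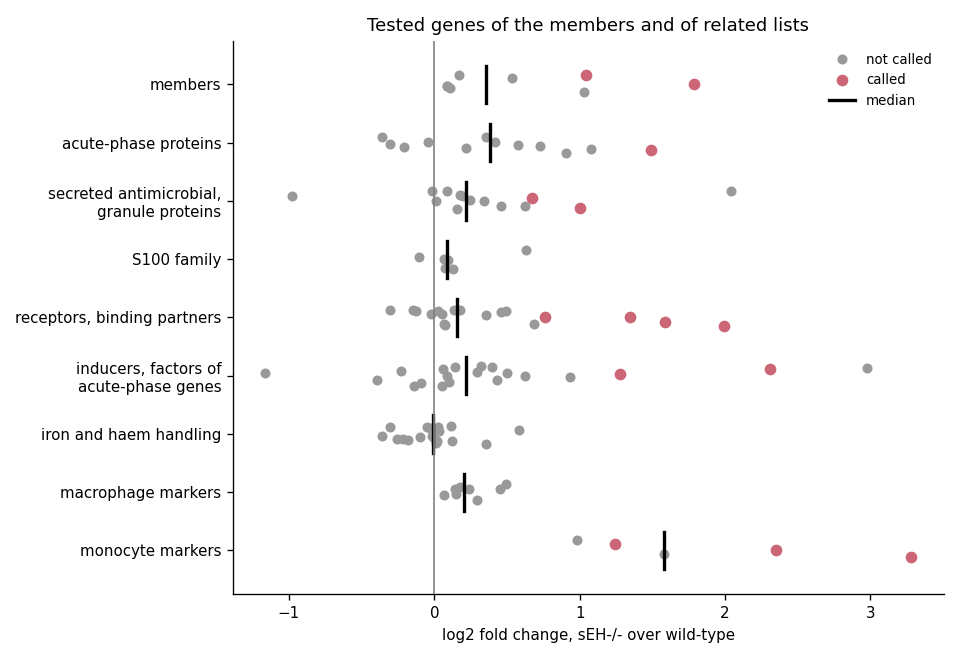
Log2 fold changes (sEH-/- over wild-type, horizontal axis) of the tested members, of the genes of 6 related lists and of macrophage and monocyte markers, with called genes in red and the median of each list as a black bar. The medians lie between -0.0066 for iron and haem handling and 0.38 for acute-phase proteins among the related lists, and higher for monocyte markers.

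Other cell types were looked for with the same tables. None of 8 lymphocyte markers was in the table, and of 7 erythroid markers only *Klf1* was. Dendritic cell markers summed to 27.5 to 58.3 CPM (sEH-/-) against 42.1 to 59.3 CPM (wild-type). Stromal markers summed to 10.9 to 20.7 CPM (sEH-/-) against 6.59 to 62.8 CPM (wild-type). Both overlapped between the genotypes, and no marker of either list was called.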

How the data were processed

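RNA of 3 sEH-/- and 3 wild-type M2c macrophage cultures was sequenced, and the authors deposited raw read counts for 19309 genes. Per the methods, with versions from the submitters' processing notes, they trimmed reads with Trimmomatic 0.39, aligned them with STAR 2.7.7a to mm10, removed duplicates with Picard 2.21.7, left out reads of mitochondrial, ribosomal or several origins and ran featureCounts 1.6.5 over exons by strand. The methods state other versions of STAR, Picard and featureCounts, and another RNA input and library kit than the labels, and the read layout is not given in the sources used here. Duplicate removal limits the counts of abundant, short transcripts.

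Genes with a mean count above 5 were tested in R 4.3.3 with edgeR 4.0.16 (TMM, quasi-likelihood test, genotype as the only term). The common biological coefficient of variation was 0.0866. An exact two-sided permutation test of 3 against 3 cannot go below p = 0.1 and was not used. The fitting script was tested on simulated data. Alternatives were DESeq2 1.42.0, limma-voom (limma 3.58.1), RLE, library sizes without TMM, other count filters, a replicate block, the library total as a covariate, no fold threshold, each library left out and a correction for 1 count per base, c to -L ln(1 - c/L), with exonic bases as L. The same correction with the principal transcript length was chosen after seeing the data. Lengths were from GENCODE annotation of the same build and found for 19286 genes. The members and lists were chosen with earlier results of these data known. Named by rule besides the members are *Ephx2*, relatives, *Cd163*, at most the 3 called genes with the highest mean count in each direction per list, and the 3 genes most like each member with a mean of at least 50 counts. Several others were named after their values were seen. Among them are *Mmp9*, *Cd14*, *Fcgr1* and the other uncalled genes of the lists that did not overlap between the genotypes. Figures were drawn with matplotlib 3.10.9. *Vtcn1* was not analysed here.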

Additional observations from a re-analysis of the deposited data

How the results depend on the processing

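With all libraries 360 genes were called, and the number was 472 with DESeq2, 234 with the replicate block, 553 without a fold threshold and 171 with a covariate for the library total. With 1 library left out it ranged from 6 (wild-type replicate 3 left out), 25 (wild-type replicate 2) and 96 (sEH-/- replicate 2) to 570 (sEH-/- replicate 3) and 625 (wild-type replicate 1). Between 0 and 4 members were called with each library left out, namely *Hp*, *Lcn2*, *Cp* and *S100a8* without sEH-/- replicate 1, *Hp* alone without wild-type replicate 2, and 0 when wild-type replicate 3 was left out. Of the genes of the related lists, 9 were called with all libraries and 0 to 15 with each library left out, from 15 (sEH-/- replicate 1 left out), 14 (wild-type replicate 1) and 5 (sEH-/- replicate 2) down to 3 (wild-type replicate 2) and 0 (wild-type replicate 3). The log2 fold change of *Chil3* turned to -0.024 when the library total was a covariate, and to -0.11 without sEH-/- replicate 3, with 0.20 as its highest value when a library was left out. No sign of pairing by replicate number was seen. The deviations of same-numbered libraries had correlations of -0.082, -0.26 and -0.037, against -0.076 to 0.16 for different-numbered libraries. Such correlations cannot show whether the mice or cultures were paired. With the replicate block *Hp* and *Lcn2* were still the members called, with 7 genes of the related lists. The cause of these changes was not tested, except that leaving out a library reduces the number of samples. For *S100a9*, *Saa1* and *Cd163* the depth was too low for a test.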
